A study of Mus musculus with 12 samples.

Results

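The Hedgehog pathway genes were examined for 2 histone marks in mouse mesenchymal stem cells (MSCs) cultured at different oxygen levels. They were 9 listed genes of 21938 protein-coding genes in the annotation: the ligands Shh, Ihh and Dhh, the receptor Ptch1, the signal transducer Smo, the inhibitor Hhip and the transcription factors Gli1, Gli2 and Gli3. They are listed by name, and the rule has no threshold on a measured value. For each gene, every called peak was read that touched the gene body or the 20000 bp on either side, which is called its locus here. The 9 loci covered 1.07 Mb and held 22 distinct peak intervals.

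The cells came from wild-type C57BL/6N male mice 3 to 5 months of age. The labels call them bone-marrow MSCs, and the methods describe isolation from limb bone fragments. They were sorted by the absence of the blood markers CD45 and Ter-119 and the presence of Sca-1 and CD140a, and the labels place the sort on day 12. The groups were cultured at 2% oxygen (hypoxia) or 21% oxygen (normoxia), and no label gives a transgene or drug. By the paper's methods, all cells were grown at 2% oxygen before the sort and were divided between the oxygen levels only after it. Chromatin immunoprecipitation with sequencing (ChIP-seq) was carried out for acetylation of lysine 27 of histone H3 (H3K27ac) and trimethylation of lysine 4 (H3K4me3). The 12 libraries formed 6 groups of 2, namely each mark and an input control at each oxygen level. Each mark and oxygen level gave 1 peak list made from both of its libraries. The lists held 15203 (hypoxia) and 14832 (normoxia) H3K27ac peaks, and 14606 and 14603 H3K4me3 peaks. They carry no read counts and no value per library, so depth and the spread between replicates are unknown, and no difference below has a replicate check.

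Hedgehog ligands are secreted proteins that bind Ptch1. Unbound Ptch1 holds Smo inactive, and ligand binding releases Smo, which acts at the primary cilium to convert the Gli factors into activators. Gli2 is mainly an activator, Gli3 is mainly processed to a repressor, and Gli1 is an activator that is itself transcribed when the pathway is on. Ptch1 and Hhip are also transcribed in response to the signal and limit it, the former as receptor and the latter by binding the ligands. In the skeleton, Ihh from growth plate cartilage is needed for the formation of bone-forming cells. H3K4me3 marks promoters, including many that are not active, whereas H3K27ac marks promoters and enhancers that are active.

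The labelled cell type was checked against marker genes, read as marks within 1000 bp of a transcription start. Of 8 mesenchymal stromal markers, 7 carried H3K27ac there: Pdgfra (which encodes CD140a), Thy1, Prrx1, Col1a1 and Col1a2 with H3K4me3, and Ly6a (which encodes Sca-1) and Lum without it. The remaining one, Eng, had H3K4me3 alone. The blood markers Ptprc, Spi1, Cd3e and Itgam had neither mark at a start. None of 4 endothelial markers had H3K27ac there, and Kdr had H3K4me3. The locus of Thy1 held 1 hypoxia-only H3K27ac peak, and peak counts at the other marker loci were equal between the oxygen lists.

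Sequences of the bases before the RefSeq transcription start (GRCm38.p6, the mm10 build) are shown for genes that represent each combination of marks described below. The window is the 250 bases before the start, 5′ to 3′ on the strand of the gene. Ptch1 and Gli3 carried both marks at the start, Gli2 and Hhip carried H3K4me3 without H3K27ac, and Dhh carried neither. Capitals mark GCGTG or ACGTG, the core letters of a hypoxia response element, on either strand.
Ptch1 promoter, chr13:63565736-63565985, minus strand: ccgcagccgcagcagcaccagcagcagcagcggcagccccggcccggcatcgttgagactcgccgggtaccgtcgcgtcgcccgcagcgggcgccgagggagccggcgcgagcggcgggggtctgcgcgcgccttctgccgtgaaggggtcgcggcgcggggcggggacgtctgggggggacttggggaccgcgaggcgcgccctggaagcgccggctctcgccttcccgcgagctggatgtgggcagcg
Gli3 promoter, chr13:15463473-15463722, plus strand: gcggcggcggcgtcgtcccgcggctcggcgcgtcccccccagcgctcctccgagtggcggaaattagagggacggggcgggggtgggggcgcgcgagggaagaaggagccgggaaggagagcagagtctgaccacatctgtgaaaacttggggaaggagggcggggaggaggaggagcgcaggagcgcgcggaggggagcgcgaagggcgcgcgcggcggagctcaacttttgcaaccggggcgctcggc
Gli2 promoter, chr1:119053620-119053869, minus strand: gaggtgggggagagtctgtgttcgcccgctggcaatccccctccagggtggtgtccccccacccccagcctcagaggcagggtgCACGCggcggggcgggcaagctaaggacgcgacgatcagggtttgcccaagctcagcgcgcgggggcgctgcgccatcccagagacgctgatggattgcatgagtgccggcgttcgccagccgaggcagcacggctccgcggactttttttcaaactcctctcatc
Hhip promoter, chr8:80058009-80058258, minus strand: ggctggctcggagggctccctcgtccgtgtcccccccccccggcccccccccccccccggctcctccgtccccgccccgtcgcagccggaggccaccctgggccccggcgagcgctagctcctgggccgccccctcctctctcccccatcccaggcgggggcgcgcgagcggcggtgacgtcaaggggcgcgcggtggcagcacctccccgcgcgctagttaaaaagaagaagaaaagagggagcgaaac
Dhh promoter, chr15:98898541-98898790, minus strand: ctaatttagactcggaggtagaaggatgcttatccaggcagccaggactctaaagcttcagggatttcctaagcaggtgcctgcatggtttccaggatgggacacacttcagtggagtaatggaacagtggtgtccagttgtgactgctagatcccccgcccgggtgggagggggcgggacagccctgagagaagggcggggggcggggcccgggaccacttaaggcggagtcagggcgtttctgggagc

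The window also served to search for GACCACCCA, the consensus bound by Gli factors, on both strands. None of the 7 members with a promoter sequence held it, and neither did most genes, since 0.164% of 16503 promoters of protein-coding genes did. ACGTG or GCGTG occurred in 2 of the 7, Smo and Gli2, with 1 match each. It occurred in 44.8% of all promoters. The end of the Gli consensus and the start of the reverse complement of GCGTG share the letters CA, so the motifs can overlap. A match is a description of the letters and does not show binding.

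When the search was widened from these windows to the H3K4me3 peaks over the starts of the same genes, 2 matches to the Gli consensus appeared, both at Ptch1. The 7 peaks covered 27 kb and belonged to Ihh, Ptch1, Smo, Gli2, Gli3 and Hhip. Dhh had no such peak, and the peaks at the starts of Shh and Gli1 were not searched. Among all 14609 H3K4me3 intervals, 2.52% held a match, at 9.38 matches per Mb. Both Ptch1 sites are shown because Ptch1 is a known target of Gli factors. Capitals mark the match, with 10 flanking bases on each side, 5′ to 3′ on the strand of the match.
Ptch1 site A, chr13:63566425-63566453, plus strand: aaagtagagaGACCACCCAggtaggcaac
Ptch1 site B, chr13:63573455-63573483, minus strand: tggcgcggcaGACCACCCAcgccgagggc

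Site A lay 700 bp upstream of the start at 63565735, inside the wide peak that carried both marks. In 2 longer Ptch1 transcripts it fell in an intron. Site B lay 5 bp upstream of the start at 63573460, inside the second, narrower H3K4me3 peak, and in the 5′ UTR of the Ptch1 transcript that starts at 63573598. A GCGTG match overlaps its last letters. Site A therefore had H3K27ac called over it at both oxygen levels, and site B did not.

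The question addressed first was whether the peaks of these genes differed between hypoxia and normoxia. Each of the 22 intervals was called at both oxygen levels, with the same boundaries. Peaks were called in a differential mode between the oxygen levels, so the same boundaries do not measure how alike the levels were. The loci held 12 H3K27ac peaks and 17 H3K4me3 peaks in the hypoxia list and the same numbers in the normoxia list. No peak was condition-specific, meaning present in the list of a mark at a single oxygen level. The 22 intervals comprised 7 with both marks, 10 with H3K4me3 alone and 5 with H3K27ac alone.

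Counts of 0 were common among genes in general. A hypoxia-only H3K27ac peak was found in the loci of 4.7% of the 21938 protein-coding genes, a normoxia-only H3K27ac peak in 1.15%, and a condition-specific H3K4me3 peak in 0.0638%. With 9 genes, a count of 0 allows a share of up to 33.3%, taken roughly as 3 divided by the number of genes. This limit covers counting error only, and the genes were chosen by name and not sampled. All loci together held 0.365 hypoxia-only and 0.115 normoxia-only H3K27ac peaks per Mb, over 1429 Mb. A count of 0 in 1.07 Mb therefore does not set these genes apart from the background. Chromatin was taken from many cells together, so a mark present in fewer cells and a weaker mark in all cells cannot be told apart.

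**Figure D1:**
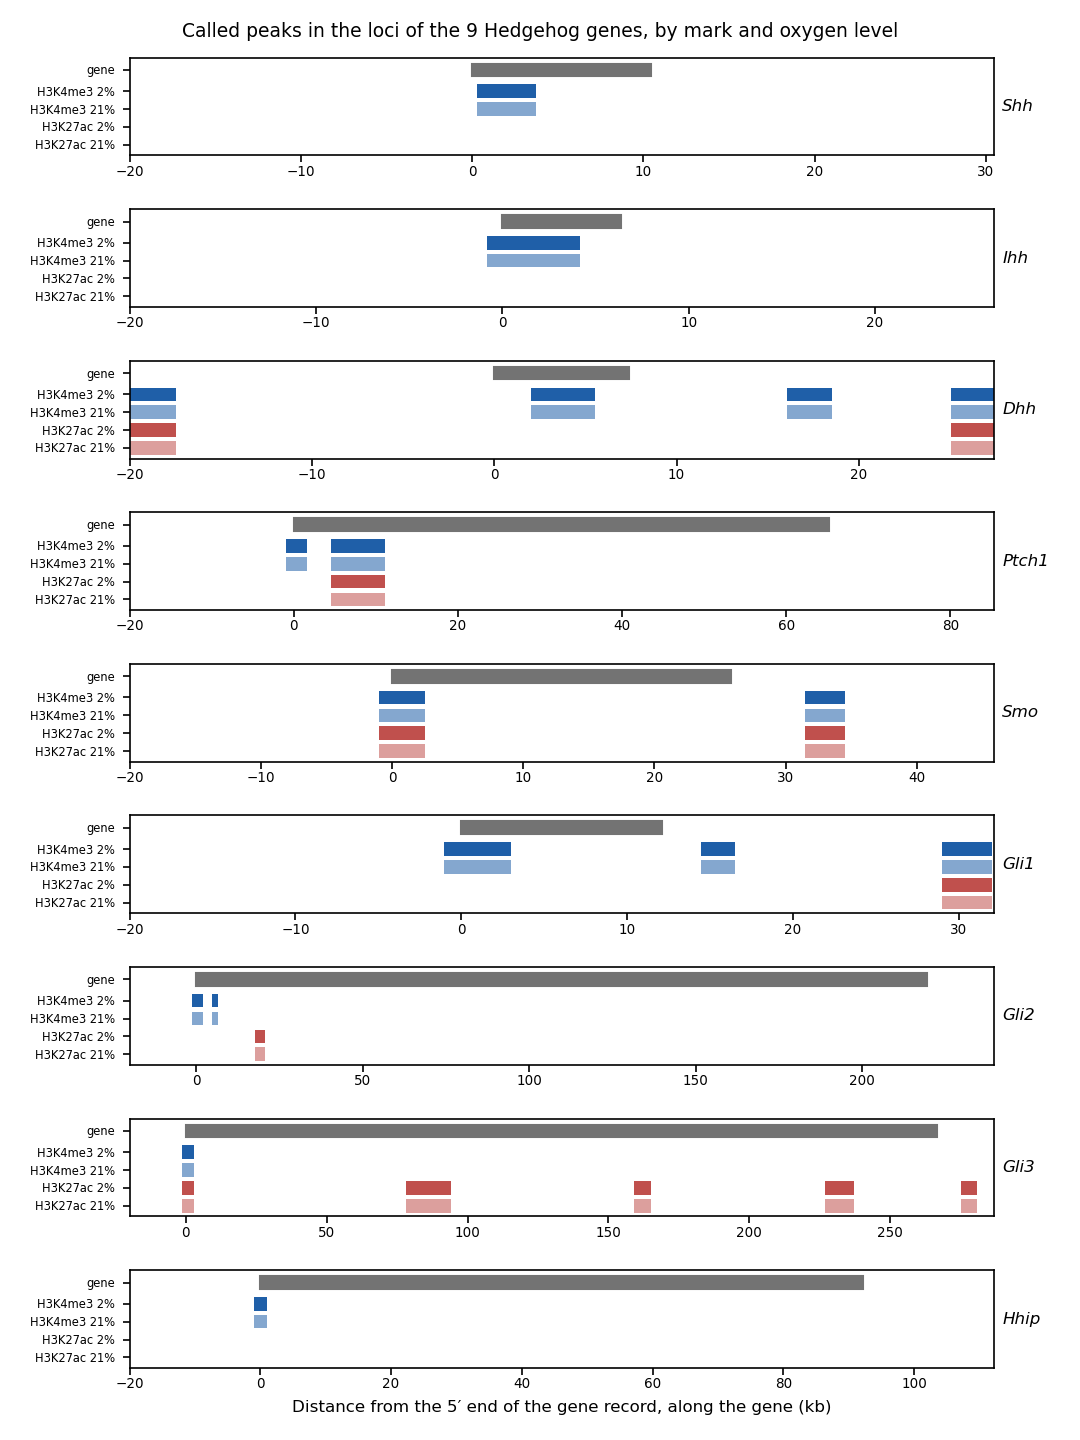
Map of the called peaks in the 9 loci, with the distance from the 5′ end of the gene record along the gene in kb on each horizontal axis (negative is upstream). Grey bars are the genes, blue bars H3K4me3 and red bars H3K27ac, dark for 2% and pale for 21% oxygen. Dark and pale bars coincide at all 22 intervals, and Shh, Ihh and Hhip have no red bar.

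H3K27ac was called in some of the loci and not in others. An H3K27ac peak lay in the loci of 6 of the 9 genes, against 55.2% of all protein-coding genes, and an H3K4me3 peak in 9 of 9, against 69.7%. At the transcription starts the marks fell into 3 classes. Ptch1, Smo and Gli3 carried both marks within 1000 bp of a start (3 of 9), as did 36.5% of all genes. Shh, Ihh, Gli1, Gli2 and Hhip carried H3K4me3 without H3K27ac (5 of 9), against 22.4% of all genes. Dhh carried neither, like 39.9% of all genes. With 9 genes chosen by name, these shares are a description and no test was made.

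**Figure D2:**
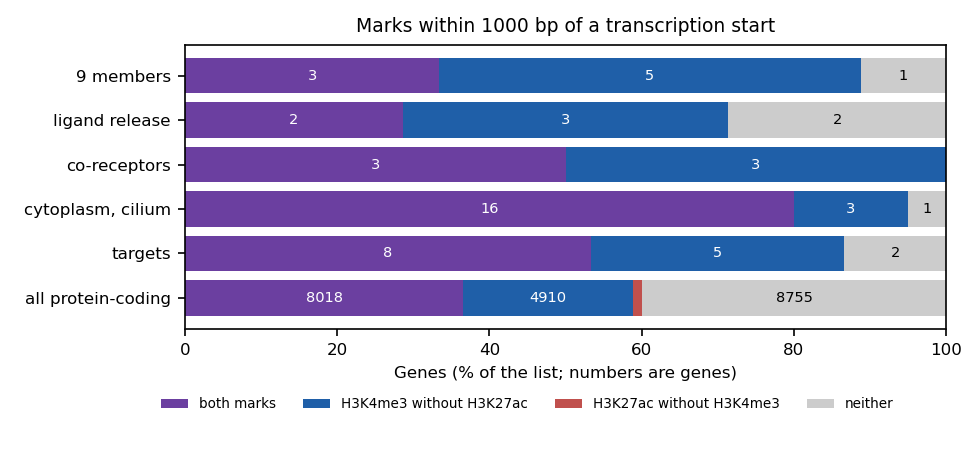
Shares of genes (horizontal axis, percent of each list) with both marks, a single mark or neither within 1000 bp of a transcription start, for the 9 Hedgehog genes, 4 lists of other pathway genes and all protein-coding genes. Numbers in the bars are genes; H3K4me3 without H3K27ac covers 5 of the 9 Hedgehog genes and 4910 of all 21938.

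The 3 ligand genes had no H3K27ac peak at their starts at either oxygen level. Shh (chr5:28456815-28467256, minus strand) had 1 peak in its locus, an H3K4me3 peak of 3500 bp at 28463501-28467000. It began 256 bp inside the gene, covered part of exon 1 and intron 1, and also lay within 1000 bp of the starts of the noncoding genes 9530036O11Rik and Gm26894. Its score, the authors' value for each peak, was 123 in both lists. No H3K27ac peak lay within 100000 bp of Shh, and the nearest was 148756 bp from its start, at the start of Rbm33.

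Ihh (chr1:74945315-74951672, minus strand) likewise had a single H3K4me3 peak in its locus, at 74947501-74952500. This peak was 5000 bp wide and ran from -828 to +4171 bp relative to the start, over exons 1 and 2 of 3. The score was 129 in both lists. The nearest H3K27ac peak was intergenic, 133672 bp from the start, with a score of 61 at each oxygen level. Ihh is the ligand with the best known skeletal role, and its locus carried the promoter mark in these cells and no called acetylation.

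Dhh (chr15:98891152-98898540, minus strand) differed from the other ligands in that no peak of either mark lay within 1000 bp of its start. Its locus was nonetheless occupied, with 4 H3K4me3 and 2 H3K27ac peaks in each list. Of the 4 intervals, 3 lay over the starts of neighbouring genes: Kmt2d with 5730414N17Rik and Gm49437 at 98867001-98873500, Rhebl1 at 98880001-98882500, and Lmbr1l at 98916001-98919500. The first and the last carried H3K27ac, scored 146 in both lists. The interval inside Dhh, at 98893001-98896500, had H3K4me3 alone and began 2006 bp from the nearer of the Dhh starts. This interval lay within 1000 bp of the start of Gm49442 and, in the full annotation, also of a start of Rhebl1. None of the acetylation in the Dhh locus was thus at Dhh itself, and 10 H3K27ac intervals lay within 100000 bp of the gene.

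The receptor gene Ptch1 (chr13:63508328-63573598, minus strand) carried both marks in a 6500-bp peak at 63562501-63569000, which covered exons 1 and 2 of 23 and 5 of the annotated starts. The H3K27ac score was 1000, the ceiling of the scale, in both lists, and the H3K4me3 score was 131 in both. The noncoding gene A930032L01Rik also starts within 1000 bp of this peak. A second peak of 2500 bp, at 63572001-63574500, held H3K4me3 alone and was scored 131 in both lists. It lay over the 2 most upstream Ptch1 starts of the full annotation, at 63573460 and 63573598, and within 1000 bp of the start of Gm30655. The alternative first exons of Ptch1 thus differed in acetylation calls, with H3K27ac over the 5 starts in the wide peak and at least 4460 bp from the 2 upstream ones, at both oxygen levels. The full annotation gives 3 further starts deeper in the gene, which were 17185, 22823 and 50472 bp from the nearest H3K27ac peak.

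Smo (chr6:29735503-29761365, plus strand) carried both marks in a 3500-bp peak over exon 1 of 12, at 29734501-29738000. The H3K27ac score was 125 and the H3K4me3 score 124 in both lists. The other interval of the locus, at 29767001-29770000, lay at the start of the downstream gene Ahcyl2. Its H3K27ac score was 96 in hypoxia and 95 in normoxia.

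Hhip (chr8:79965851-80058006, minus strand), the ligand-binding inhibitor, had H3K4me3 alone. Its only peak, at 80057001-80059000, was 2000 bp wide, covered exon 1 of 13 and was scored 130 in both lists. The nearest H3K27ac peak lay 345506 bp from its start, over the starts of Abce1 and Anapc10. Of the genes in the same class at their start, 91.9% had an H3K27ac peak at least as near. Hhip and Ptch1 are both feedback inhibitors of the pathway, and they differed in the acetylation called at their starts.

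The 3 Gli genes each had a different pattern. Gli1 (chr10:127329882-127341974, minus strand) had H3K4me3 without H3K27ac over its start, in a 4000-bp peak at 127339001-127343000 that covered exons 1 and 2 of 13 and was scored 1000 in both lists. Its locus held 2 further intervals. A peak at 127325501-127327500 had H3K4me3 alone, scored 137 in both lists, inside Arhgap9. The only H3K27ac peak of the locus, at 127310001-127313000, lay at the starts of Mars and Gm6283, 28974 bp from the Gli1 start, and was scored 138 in both lists. H3K27ac in the Gli1 locus was therefore called at a neighbouring gene, as in the Dhh locus.

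Gli2 (chr1:118834132-119053619, minus strand) had H3K4me3 without H3K27ac at its start, in a 3500-bp peak at 119051501-119055000 scored 1000 in both lists. Intron 1 held 2 further peaks. That at 119047001-119049000 had H3K4me3 alone, with a score of 76 in both lists. That at 119033001-119036000 had H3K27ac alone and lay 17619 bp inside the gene. This was the sole H3K27ac interval within 100000 bp of Gli2, a gene of 219488 bp. Its score was 87 in hypoxia and 77 in normoxia.

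Gli3 (chr13:15463235-15730026, plus strand) carried most of the called acetylation in total bp. Its 5 H3K27ac peaks covered 42000 bp, against 10000 bp in the Dhh locus, 6500 bp at Ptch1 and at Smo, and 3000 bp at Gli1 and at Gli2. The loci differed in length, with 306792 bp for Gli3, 47389 bp for Dhh, 105271 bp for Ptch1 and 65863 bp for Smo. Relative to its length, the Dhh locus held more than that of Gli3, all of it at neighbouring genes. The peak over the start, at 15462001-15466000, carried both marks, with an H3K27ac score of 1000 and an H3K4me3 score of 127 in both lists. The starts of Gm26645 and Gm6556 lie within 1000 bp of it. The remaining 4 peaks had H3K27ac alone and lay far from the start. The widest, of 16000 bp at 15541501-15557500, covered exon 3 and parts of introns 2 and 3, 77521 bp from the start. It was as wide as or wider than 88.7% of 7338 H3K27ac peaks that were shared by both lists and had no H3K4me3. Others lay in intron 4 (15622501-15628500), in intron 10 (15690001-15700500) and downstream of the gene (15738501-15744000).

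Gene length differed between the members, and longer loci more often hold a condition-specific H3K27ac peak. The share of genes with such a peak was 5.15% for loci of 40000 to 60000 bp and 8.68% for loci of 200000 to 400000 bp. Gli2 and Gli3 fall in the longest of these classes and had no condition-specific peak.

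Scores were then compared between the oxygen lists for peaks present in both. All 17 H3K4me3 peaks of the loci had equal scores, as did 100% of the 14600 shared H3K4me3 peaks, so these scores hold no information on oxygen. Of the 12 H3K27ac peaks, 10 were scored below 1000, and their median difference (hypoxia minus normoxia) was 0. The 5 with H3K27ac alone included the larger differences. The peak downstream of Gli3 was scored 118 in hypoxia and 93 in normoxia, a difference of 25. The 16000-bp peak of Gli3 was scored 98 and 78, a difference of 20. The Gli2 intron 1 peak followed with a difference of 10. The peaks in introns 4 and 10 of Gli3 differed the other way and by little, with scores of 74 and 75, and of 71 and 73.

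Set against all 6357 peaks of this kind with scores below 1000 in both lists, 3 of 5 member peaks were scored higher in hypoxia, and 46.8% of all were. The median difference over all was 0, with quartiles of -1 and 7. The differences at Gli3 downstream, Gli3 exon 3 and Gli2 were at or above those of 93.8%, 90.8% and 80.9% of peaks. Within the same chromosome the values were 96.4% and 94.5% of 253 peaks on chromosome 13, and 83.3% of 406 peaks on chromosome 1. The 4 distal Gli3 peaks were thus split, with 2 well above the median and 2 slightly below 0.

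**Figure D3:**
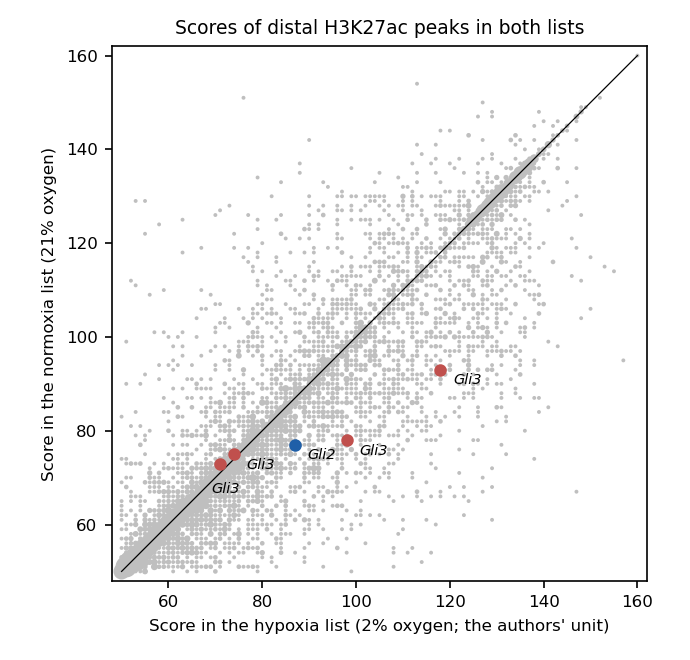
Score in the hypoxia list (horizontal axis) against score in the normoxia list (vertical axis), in the authors' unit, for H3K27ac peaks without H3K4me3 present in both lists; grey points are all such peaks, larger where several coincide, and the line marks equal scores. The Gli3 peaks (red) at 118 and 93 and at 98 and 78 and the Gli2 peak (blue) lie below the line, and the other 2 Gli3 peaks lie slightly above it.

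The meaning of the score was not stated, and its scale differed between chromosomes. The share of H3K27ac peaks at the ceiling of 1000 in the hypoxia list was 39.4% on chromosome 13, which holds Ptch1 and Gli3, 30.2% on chromosome 1, and 0% on chromosomes 10 and 15. The values of 1000 at Ptch1 and Gli3 therefore do not rank them above Smo. Ranks over all chromosomes mix these scales, which is why the ranks within a chromosome stand beside them above. In the normoxia list the share at the ceiling was 35.4% on chromosome 13 and 26.4% on chromosome 1. The 6357 peaks above had median scores of 80 in hypoxia and 77 in normoxia. Whether the oxygen lists share a scale is unknown, so the score differences at Gli2 and Gli3 cannot be read as amounts of H3K27ac.

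The same GACCACCCA consensus was sought in the 5 H3K27ac peaks without H3K4me3 of Gli2 and Gli3, which covered 41 kb. There were 0 matches. Among all 7338 such peaks, 6.46% held a match, at 8.50 per Mb, a rate that gives less than 1 match in 41 kb.

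H3K4me3 peaks within 1000 bp of a start were wide for their class in 4 of the 5 genes that lacked H3K27ac. The Shh peak among them did not cover the Shh start, from which it lay 256 bp away. It also lay near the starts of 9530036O11Rik and Gm26894, so its width may not belong to Shh alone. The class of 4910 genes with H3K4me3 alone at a start had a median width of 2500 bp (quartiles 2000 and 3000 bp). Ihh, with 5000 bp, was at or above 98.6% of the class, Gli1, with 4000 bp, 96.8%, and Shh and Gli2, with 3500 bp each, 94.9%. Hhip, with 2000 bp, was at or above 35.0%, and 3.87% of the class was narrower. In the class with both marks, whose median was 3000 bp over 8018 genes, the Ptch1 peak of 6500 bp was at or above 96.6%, that of Gli3 (4000 bp) 84.3% and that of Smo (3500 bp) 75.7%. Widths take steps of 500 bp, so many are equal. Narrower peaks made up 97.8% of the class for Ihh, 94.9% for Gli1 and 90.3% for Shh and Gli2. With both marks, the values were 95.4% for Ptch1, 75.7% for Gli3 and 60.5% for Smo. Boundaries of the lists are common to both marks, so a width also depends on the H3K27ac calls.

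**Figure D4:**
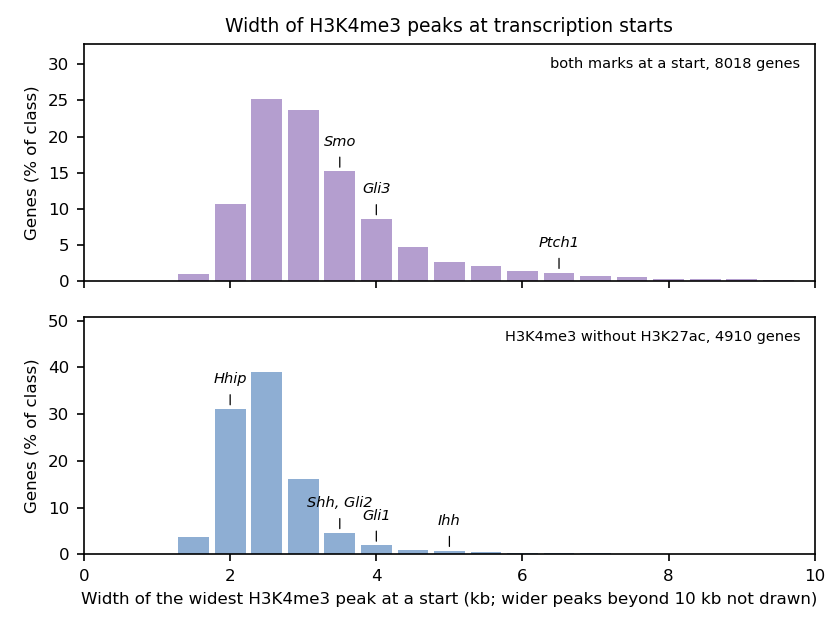
Width of the widest H3K4me3 peak at a start (horizontal axis, kb) for genes with both marks there (upper panel, 8018 genes) and with H3K4me3 alone (lower panel, 4910 genes); bars give the percentage of genes in each 500-bp step and labels point to the Hedgehog genes. Ihh, Gli1, Shh and Gli2 lie to the right of the median of 2500 bp, and Hhip lies to its left.

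The distance to acetylation also varied within the class. For genes with H3K4me3 alone at the start, the median distance to the nearest H3K27ac peak was 47974.5 bp (quartiles 20062.5 and 118036 bp). Gli2 and Gli1 lay below this median at 17619 bp and 28974 bp, and Ihh, Shh and Hhip lay above the upper quartile. Shh, Ihh and Hhip had no H3K27ac peak within 100000 bp of the gene, a condition met by 26.1% of all genes.

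CpG content before the start differed between the classes. The ratio of observed to expected CpG, in the 250-base windows, had a median of 0.788 over 6302 promoters with both marks, 0.684 over 3773 with H3K4me3 alone and 0.188 over 6263 with neither. Gli3, at 1.13, and Ptch1, at 1.08, were at or above 97.8% and 96.4% of all promoters. Hhip at 0.798, Ihh at 0.783 and Gli2 at 0.780 were close to each other, above the median of their class. Smo was at 0.535, below the lower quartile of 0.621 for genes with both marks. Dhh, at 0.432, was above the upper quartile of 0.336 for genes with neither.

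**Figure D5:**
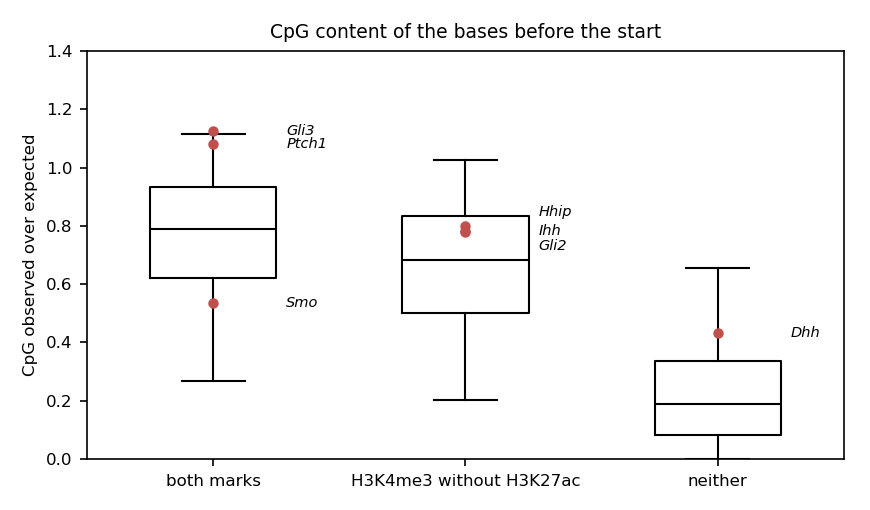
Ratio of observed to expected CpG (vertical axis) in the 250 bases before the start for promoters with both marks, H3K4me3 without H3K27ac, or neither at the start; boxes give median and quartiles, whiskers the 5th and 95th percentiles, and red points the 7 Hedgehog genes with a promoter sequence. Gli3 and Ptch1 lie near or above the upper whisker of their class and Dhh above the box of its class.

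Beyond the 9 genes, 48 other pathway genes were read in the same way. Both marks were called at the start in 29 (against 36.5% of all genes), H3K4me3 alone in 14 and neither in 5. The cytoplasmic and ciliary regulators carried both marks in 16 of 20 genes, among them Sufu, which holds Gli factors in the cytoplasm. Kif7, a kinesin of the ciliary tip, had H3K4me3 alone. Among 6 co-receptors and binding proteins, Boc, Cdon and Gas1, which help ligands bind Ptch1, carried both marks. Of 7 genes for ligand processing and release, Hhat, which attaches palmitate to the ligands, and Disp1, which releases them, carried both marks. Of 15 target genes, 8 carried both marks, 5 carried H3K4me3 alone and 2 neither.

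Condition-specific H3K27ac was found in 4 of these 48 loci, hypoxia-only in 3 (against 4.7% of all genes) and normoxia-only in 1 (against 1.15%). A hypoxia-only peak of 1000 bp lay 69925 bp from the Cdon start, at chr9:35522001-35523000, with a score of 54. Another, of 500 bp, lay 1636 bp from the Gas1 start, at chr13:60179001-60179500, with a score of 51. In the Iqce locus, a hypoxia-only peak of 3500 bp with a score of 70 lay at the start of Ttyh3 (chr5:140646001-140649500), 52839 bp from the Iqce start. The normoxia-only peak, of 500 bp and a score of 53, lay 2403 bp from the start of Spop, a ubiquitin ligase adaptor that acts on Gli factors (chr11:95416501-95417000). Each of the 4 touched an H3K27ac peak present in both lists, so each extended a shared region at a single oxygen level. The lowest score in the lists is 50, and the hypoxia-only peaks near Gas1 and Cdon and in the Iqce locus were at or above 15.8%, 33.3% and 77.9% of hypoxia-only peaks over all chromosomes. The Spop peak was at or above 38.5% of normoxia-only peaks. No such peak lay within 1000 bp of a start of the listed gene.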

How the data were processed

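ChIP-seq was carried out on 12 libraries. According to the study's methods and the processing notes, the authors mapped reads with Bowtie2 to mm10, used Picard to discard duplicates, and ran chromstaR in its differential mode to find peaks. The authors deposited 4 peak lists, each from both libraries of a group, giving positions and a score of 50 to 160 or 1000. The definition of the score is not given in the sources used here. Boundaries fall on steps of 500 bp. Input libraries had no list and were not used here.

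Peaks overlapping a locus by at least 1 bp were read (Python 3.11.15, numpy 2.4.6, pysam 0.24.0, matplotlib 3.10.9) against GENCODE M21 basic transcripts, with the full annotation where stated. Other genes were named where they start within 1000 bp of a peak in a locus, and from the wider list where a locus held a condition-specific peak, besides a few fixed names, and 3 listed genes are not reported here. Genes with the same counts and start calls numbered from 19 (Dhh) to 2067 (Shh, Ihh and Hhip) and are not named. The members and lists were chosen with earlier results of these data known. Promoter sequences came from RefSeq (GRCm38.p6), which matched 7 of 9 genes. The code was tested on simulated intervals. No test between oxygen levels was possible.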

Additional observations from a re-analysis of the deposited data

How the results depend on the processing

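No paired analysis was possible because the peak lists hold no values per library, and for the same reason no library could be left out. Of the alternative values, 49 moved by at most 1.5 times or stayed within the interval of the median. Among these, members with an H3K27ac peak numbered 4 instead of 6 with the gene body alone. Members with an H3K4me3 peak numbered 7 instead of 9 without the lowest-scoring 25%. The counts that moved further did so with the window or the score limit. With the gene body alone, H3K27ac peaks fell from 12 to 7 and H3K4me3 peaks from 17 to 11 at each oxygen level. With 100000 bp on each side, H3K27ac peaks numbered 27 in hypoxia and 26 in normoxia, and H3K4me3 peaks 30 in each. That window added 1 hypoxia-only H3K27ac peak, near Gli1 (chr10:127294001-127301000, score 51). Without the lowest-scoring 25% of both lists there was 1 normoxia-only H3K27ac peak, in intron 10 of Gli3. Its hypoxia score of 71 was not above the hypoxia limit of 73, whereas its normoxia score of 73 was above the limit of 71, so the call follows from the limits. Among the 48 other pathway genes, 4 had condition-specific H3K27ac, against 1 with the gene body alone, 9 with 100000 bp on each side and 9 without the lowest-scoring 25%. Matches to the Gli consensus at the starts numbered 0 in the promoter windows and 2 in the 7 H3K4me3 peaks searched, which left out Shh and Gli1. With the start base required inside the peak, 7 members had H3K4me3 at a start instead of 8, and with the 5′ end of the gene record, 2 had H3K27ac instead of 3. Within 2500 bp of a start, 9 members had H3K4me3, since the peak inside Dhh was then counted, and 3 had H3K27ac. That setting placed Dhh among the genes with H3K4me3 without H3K27ac, by a peak that also lay near starts of Gm49442 and Rhebl1. Starts of the full annotation, tried after the data were seen, left both counts at 8 and 3.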

Other observations

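The condition-specific H3K27ac peaks nearest to the 9 starts lay outside all 9 loci. Gli1 had the closest, 40974 bp away at chr10:127294001-127301000, a hypoxia-only peak with a score of 51. It lies over Ddit3, a stress-induced transcription factor gene, and Mars, which encodes a transfer RNA synthetase for methionine. For Ptch1, Ihh, Gli2, Smo and Hhip the distances were 548535, 556672, 595119, 607807 and 721995 bp. Those of Dhh, Shh and Gli3 were 1993006, 3128745 and 7961521 bp. The peaks nearest to Gli2, Smo and Gli3 were normoxia-only and the others hypoxia-only.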
